A study of Saccharomyces cerevisiae with 134 samples.

Results

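The later phase of H3K36me3 loss was followed from 30 to 90 min after budding yeast were moved from blue light to darkness. The libraries were chosen by label as the H3K36me3 ChIP of the light to dark course at 30 min (3 libraries) and at 90 min (3 libraries), which makes 6 of 134 samples in the series. Libraries of the same replicate number were treated as a pair. The deposited table holds 5355 genes, and 4813 of them were tested after genes with missing values and those under the 10th percentile of mean signal were left out.

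Set2 is the methyltransferase that places H3K36 methylation in yeast. It travels with elongating RNA polymerase II, so the trimethyl mark lies over transcribed gene bodies, where it keeps chromatin deacetylated and restrains transcription from internal promoters. The mark can leave a gene through demethylases such as Rph1, through exchange of histones, or through dilution as DNA is copied. LANS-Set2 is Set2 fused to a light-activated nuclear shuttle, and in darkness the fusion leaves the nucleus.

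All 6 libraries came from BY4741 cells of genotype set2∆ that expressed LANS-Set2, grown in SC−LEU at 30 °C under 500 μW/cm2 of blue light and then shifted to the dark. The 0 and 60 min libraries of the same cells (3 each) entered the fit and gave the earlier and intermediate levels. A second light to dark course is labelled set2delta;rph1delta and carries LANS-Set2 as well, and RNA of the set2∆ LANS-Set2 cells was sequenced at the same times (3 libraries each). The fusion is the source of Set2 in all of these cells, and SET2 itself is not analysed here. The labels do not say that replicates were separate cultures, so p-values measure the spread between these libraries. The depth of the ChIP libraries is unknown, and neither the unit of the signal nor its scaling between libraries is stated, although S. pombe chromatin corresponding to 15% was added to the immunoprecipitations.

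The mark continued to fall over nearly the whole genome after 30 min of dark. The median signal over genes was 0.0752, 0.0844 and 0.0798 in replicates 1, 2 and 3 at 30 min. At 90 min it was 0.0445, 0.0526 and 0.0482 in the same order. Every 90 min library lay below every 30 min library. The pairs kept 59.1%, 62.3% and 60.3% of their 30 min median, a mean of 60.6% ± 1.63 (SD, n = 3). The sign-flip test over pairs gave an exact two-sided p = 0.25, which is the smallest that 3 pairs allow. In constant darkness the median was 0.0243 ± 0.00183 (SD, n = 3) in the dark to light course, whose table was deposited separately and may be scaled differently.

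**Figure D1:**
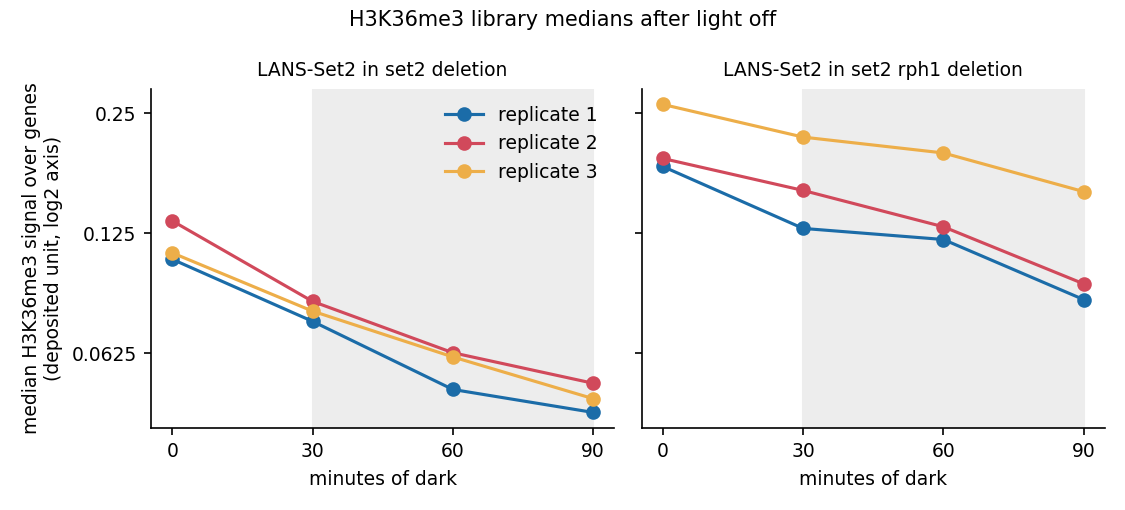
Median H3K36me3 signal over tested genes (log2 axis) against minutes of dark, with 1 line per replicate, for the LANS-Set2 cells of genotype set2∆ (left) and the libraries labelled set2delta;rph1delta (right). The shaded span is 30 to 90 min, in which the left medians go from between 0.0752 and 0.0844 to between 0.0445 and 0.0526.

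Gene by gene, limma called 4623 of 4813 genes lower at 90 than at 30 min (96.1%) and 1 higher (0.0208%), with Benjamini-Hochberg adjusted p under 0.05. At unadjusted p under 0.05 there were 4627 genes in either direction, and without replicate 2 the count of higher genes was 7. The median log2 change was -0.62, and the middle 90% of genes lay between -0.79 and -0.34. All changes are on the scale log2(signal + 0.00635), where the added value is 0.1 of the table median and understates changes of genes with low signal. On the untransformed means the median gene kept 62.7% of its 30 min signal, with 5% of genes below 54.5% and 5% above 74.7%. The 90 min values lay below all 30 min values in 4475 genes (93%). A further 189 genes passed in neither direction, and their median signal over the course was 0.0404 against 0.0757 over all tested genes.

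The single call in the upward direction was YLR035C-A, a feature without a standard name. Its signal was 0.0425, 0.0590 and 0.0181 at 30 min and 0.0594, 0.112 and 0.0674 at 90 min. The 2 groups did not overlap there, but the lowest 90 min value was almost the highest 30 min value. The deepest fitted fall belonged to YBL111C, also without a standard name. It went from 0.0866, 0.207 and 0.187 to 0, 0.0384 and 0, and a feature listed at 0 gives no fold. These features were named after their values were seen.

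By library median, the rate of loss was higher in the first 30 min than later in all 3 pairs. From 0 to 30 min limma called 4618 of 4813 genes lower (95.9%) and 0 higher, with 4620 at unadjusted p under 0.05. In the first 30 min the library medians kept 69.9%, 62.8% and 71.4% of their starting value, which corresponds to a halving time of 54.9 ± 8.98 min (SD, n = 3). Between 30 and 90 min the halving time was 79.1, 88.0 and 82.3 min, a mean of 83.2 ± 4.51 min (SD, n = 3). The later halving time was longer in all 3 pairs (exact two-sided sign-flip p = 0.25, the smallest possible). The signal lost from the median was 0.0381 from 0 to 30 min, 0.0215 from 30 to 60 min and 0.00985 from 60 to 90 min.

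In the set2∆ course more was lost from 30 to 60 min than from 60 to 90 min. From 30 to 60 min limma called 4331 genes lower (90%) and 0 higher, with 4352 genes at unadjusted p under 0.05 and a median log2 change of -0.40. From 60 to 90 min it called 2946 lower (61.2%) and 7 higher (0.145%), with a median of -0.22. The library medians kept 67.5%, 74.4% and 76.8% from 30 to 60 min and 87.6%, 83.8% and 78.6% from 60 to 90 min. The later interval kept more in each pair, and the margin ran from small in replicate 3 to large in replicate 1. The calls from 60 to 90 min need the replicate block: without it limma called 0 genes, with 1786 at unadjusted p under 0.05, and the blocked count was 1394 without replicate 2 and 873 without replicate 3.

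For single genes, the difference of pace was taken as the change per hour from 30 to 90 min minus that from 0 to 30 min. It was positive, meaning slower loss later, in 4603 of 4813 genes, with a median of 0.40 log2 units per hour. Limma called 1 gene slower later (0.0208%) and 0 faster, beside 1972 genes at unadjusted p under 0.05. Without replicate 1 the count was 25, and 2208 with a pseudocount as large as the table median. The called gene was QCR6 (YFR033C, chromosome VI, 224326 to 224769, R64), which encodes a subunit of respiratory complex III. Its signal was 0.445, 0.530 and 0.395 at 0 min and 0.200, 0.236 and 0.191 at 30 min. It then went to 0.141, 0.156 and 0.138 at 60 min and to 0.124, 0.142 and 0.111 at 90 min. QCR6 thus kept 45.8% over the first 30 min and 60.1% from 30 to 90 min, the latter near the median gene. The pace difference was 1.49 ± 0.14 (SE) log2 units per hour (limma adjusted p = 0.000497), and without the replicate block it did not pass.

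Next, each gene was set against its own libraries by subtracting the library's median log2 value, which gives a relative change. The median gene had a relative change of 0.04, so values near that size are typical. Limma called 46 genes lower (0.956%) and 35 higher (0.727%), and 1009 genes had an unadjusted p under 0.05. These counts are fragile. Leaving out any 1 replicate left 1 to 7 lower and 0 to 2 higher, using only the 6 libraries at 30 and 90 min left 2 and 2, and without the replicate block the counts were 24 and 15. Across genes the relative changes of the 3 pairs were weakly related, with Spearman's rho of 0.233, 0.298 and 0.279 between pairs over genes that share the same libraries.

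The called genes differed in kind. The 46 lower genes kept a median of 50.7% of their 30 min signal, and 45 of them had a mean signal at or above that of the median tested gene. The value added before the log2 understates changes at low signal, which favours genes of high signal among the lower calls. How much of this share comes from the scale was not tested. Their median length was 691.5 bp against 1227 bp over all tested genes, and their median RNA level was 969 TPM (a length-normalised RNA abundance) against 26.7 TPM. Cytosolic ribosomal protein genes made up 16 of the 46, beside 121 of 4813 tested genes and 113 of 2407 at or above the median signal. Of the 35 higher genes, 18 lay below the median signal and had a median length of 309 bp. The other 17 kept a median of 72.5%, with a median length of 1578 bp and a median RNA level of 29.3 TPM. No ribosomal protein gene was among the 35, but with 121 such genes among 4813 tested, few or none would be expected there.

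**Figure D2:**
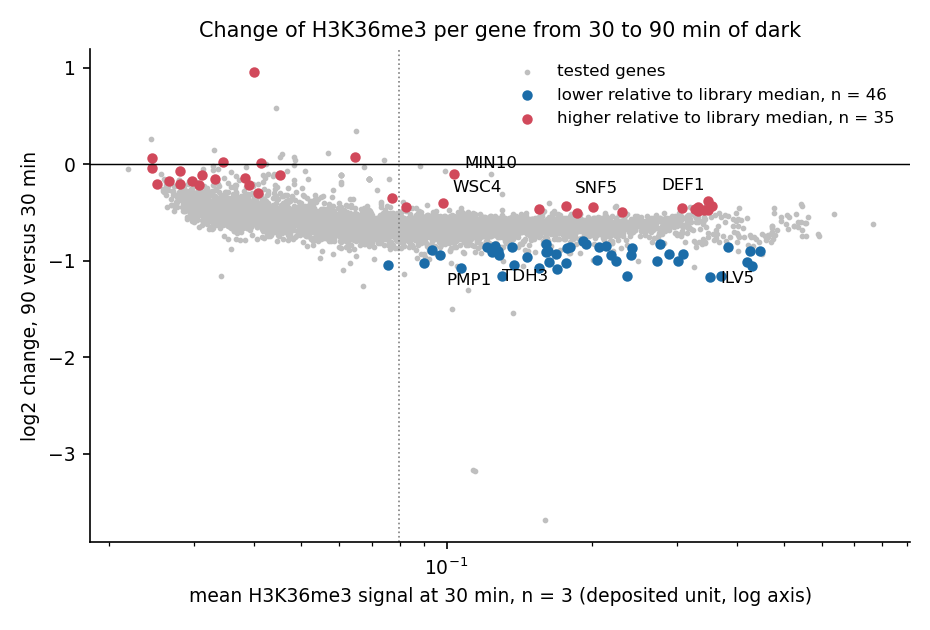
Log2 change from 30 to 90 min for each tested gene against its mean signal at 30 min (log axis, n = 3), where the dotted line marks the median gene. The 46 genes called lower relative to the library median are in blue and the 35 called higher in red, and most of the latter with a change near 0 have low signal.

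ILV5 (YLR355C, chromosome XII, 838066 to 839253, R64), which encodes a branched-chain amino acid enzyme of mitochondria, had the deepest fall on the log2(signal + 0.00635) scale among the genes eligible for naming. Its signal was 0.330, 0.385 and 0.340 at 30 min and 0.137, 0.176 and 0.149 at 90 min. All 90 min values were less than the lowest 30 min value by a wide gap. ILV5 kept 43.7%, a log2 change of -1.17 ± 0.07 (SE, limma adjusted p = 1.78e-07) and a relative change of -0.51 ± 0.06 (adjusted p = 0.00505). PSA1 (YDL055C, chromosome IV, 355674 to 356759), which makes the GDP-mannose used for glycosylation, had 0.238, 0.253 and 0.220 at 30 min and 0.0999, 0.111 and 0.0975 at 90 min. Its relative change was -0.50 ± 0.04 (limma adjusted p = 0.00209), within a narrow range in the 3 pairs. PMP1 (YCR024C-A, chromosome III, 162945 to 163067), a small regulator of the plasma membrane proton pump, kept 42.1% of its untransformed signal, less than ILV5, and had a log2 change of -1.16.

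Some glycolytic genes were among the fast losers. All 13 tested members of the glycolysis and fermentation list fell, beside 96.1% of all genes. In relative change 5 of the 13 were lower, beside 0.956% of all genes: TDH3, TPI1, ENO2, FBA1 and PDC1. TDH3 (YGR192C, chromosome VII, 882812 to 883810), the main glyceraldehyde-3-phosphate dehydrogenase, had 0.162, 0.169 and 0.176 at 30 min and 0.0669, 0.0861 and 0.0778 at 90 min. Its signal thus went to 45.5% (relative change -0.43 ± 0.06, limma adjusted p = 0.00799). FBA1, the aldolase, kept 51.4% and had 0.281, 0.297 and 0.290 against 0.142, 0.160 and 0.145. The groups were apart in both genes. TDH2, a close paralog of TDH3 with a mean RNA level of 1105 TPM against 12504 TPM for TDH3, kept 61.7% and did not pass in relative change (adjusted p = 0.840). The median relative change of the list was 0.01, with pairs at 0.01, 0.05 and -0.10.

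The list of cytosolic ribosomal protein genes had a lower median relative change than all genes tested. The list was drawn by name pattern and also holds RPP1, a subunit of RNase P that kept 60.2%. All 121 tested members fell, with a median log2 change of -0.74 against -0.62 over all genes. The median relative change was -0.09, with pairs at -0.04, -0.11 and -0.14, against 0.04 over all genes tested. In relative change 16 members were lower and 0 higher, beside 0.956% of all genes called lower. RPS9A (YPL081W, chromosome XVI, 404950 to 406044), a small-subunit protein, had 0.0992, 0.120 and 0.103 at 30 min and 0.0457, 0.0525 and 0.0443 at 90 min. Its relative change was -0.42 ± 0.04 (limma adjusted p = 0.00505). Its paralog RPS9B, named after its values were seen, had 0.436, 0.478 and 0.504 against 0.299, 0.319 and 0.287. RPS9B kept 63.9% and RPS9A 44.2%, and the difference between the 2 genes was not tested. RPS29A kept 44.0% and RPS29B 47.6% (limma adjusted p = 0.0266 and 0.0336 in relative change), while RPS15 kept 48.6% (adjusted p = 0.00580).

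The list was not uniform. Of the 8 named genes with the smallest called falls 3 were members: RPS8B kept 74.5%, RPS28B 73.1% and RPS0B 75.3%, and 0 of these 3 passed in relative change. RPS0B (YLR048W, chromosome XII, 242232 to 243349) had 0.508, 0.565 and 0.552 at 30 min and 0.364, 0.459 and 0.402 at 90 min. Many ribosomal protein genes, and TDH3, TEF2, SSB2 and HHT2, have near-identical copies. How reads shared by such copies were placed is not stated, so their values are uncertain.

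MET6 (YER091C, chromosome V, 339864 to 342167), methionine synthase, had 0.154, 0.186 and 0.165 at 30 min and 0.0804, 0.0948 and 0.0804 at 90 min (relative change -0.28 ± 0.03, limma adjusted p = 0.00505). With ILV5 and the glutamine synthetase gene GLN1 it made up the 3 of 56 tested amino acid synthesis genes called lower. STM1, a ribosome-binding protein, was the 1 of 21 translation factor genes called lower and kept 50.7%. Both counts stand beside 0.956% of all genes. The median relative change of the translation factors was 0.09, which lay on the other side of the median gene, and SUP35, the release factor eRF3, kept 70.1% (adjusted p = 0.0563). MBF1, a transcriptional coactivator, kept 45.4%, IDI1 of sterol precursor synthesis kept 50.7% (adjusted p = 0.0426), and HSP78, a mitochondrial chaperone, kept 56.3% (adjusted p = 0.0431). In relative change the calls of MBF1 and HSP78 were lost in 7 alternative settings each and that of IDI1 in 6. The call of ILV5 was lost in 2 and that of PSA1 in 1.

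**Figure D3:**
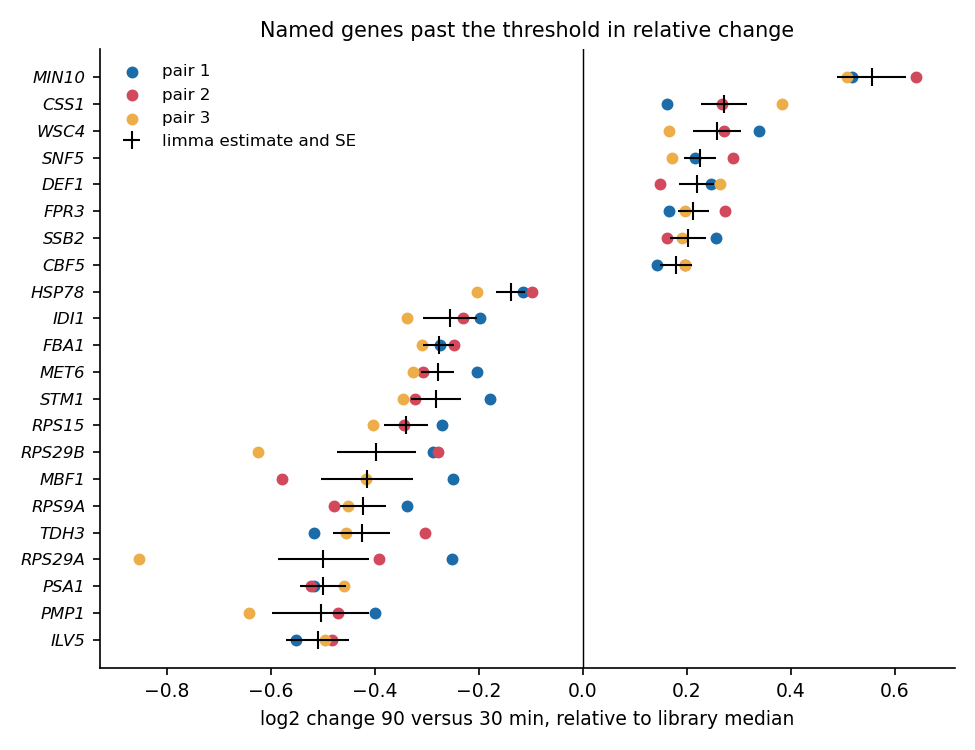
Relative log2 change from 30 to 90 min of the named genes past the threshold, with 1 point per replicate pair and the limma estimate with its standard error. MIN10 is highest at 0.56 and ILV5 lowest at -0.51, and in each gene shown the 3 pairs lie on the same side of 0.

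At the slow end, SNF5 (YBR289W, chromosome II, 779667 to 782384), a subunit of the SWI/SNF chromatin remodeller, had 0.172, 0.179 and 0.180 at 30 min and 0.123, 0.141 and 0.126 at 90 min. It kept 73.4%, with a relative change of 0.23 ± 0.03 (limma adjusted p = 0.00973). DEF1 (YKL054C, chromosome XI, 336537 to 338753), which is needed for the degradation of stalled RNA polymerase II, had 0.333, 0.376 and 0.354 at 30 min and 0.244, 0.269 and 0.267 at 90 min. In both genes the mark fell and the groups did not overlap. Relative to the median, DEF1 was higher by 0.22 ± 0.03 (adjusted p = 0.0165). FPR3, a nucleolar prolyl isomerase, kept 72.8% (adjusted p = 0.0117), CSS1 76.3% (adjusted p = 0.0220) and WSC4, a cell wall stress sensor, 74.7% (adjusted p = 0.0292).

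CBF5, the pseudouridine synthase of box H/ACA particles, was the 1 of 52 ribosome biogenesis genes called higher in relative change, beside 0.727% of all genes, and it kept 71.5%. SSB2, a ribosome-associated Hsp70, kept 72.5%. MIN10 (YFR032C-B, chromosome VI, 223710 to 223973) was the slowest of all named genes. It had 0.0861, 0.116 and 0.108 at 30 min and 0.0762, 0.118 and 0.0966 at 90 min, and these values overlapped. MIN10 did not pass in absolute change (-0.10 ± 0.08, limma adjusted p = 0.262), and its relative change was 0.56 ± 0.07 (adjusted p = 0.00505). A pseudocount as large as the table median turned the relative changes of CBF5, SSB2 and DEF1 to -0.041, -0.016 and -0.011. Calls in relative change were lost in 9 alternative settings for SSB2, 7 for CBF5 and 6 for WSC4. They were lost in 5 for SNF5 and for DEF1, and in 2 for MIN10.

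Several slow genes shared runs of few codons. This feature was looked for after the values were seen, so it is a description with no test. In each coding sequence of the R64 genome the window of 40 codons with the fewest distinct codons was found. The 17 slow genes at or above the median signal had a median of 13 distinct codons in that window, against 20 in the 2380 such genes with a window and 18 in the 45 fast ones. A window with at most 10 distinct codons was held by 7 of the 17 (41.2%), by 0 of the 45 and by 58 of the 2380 (2.44%). The median length was 1578 bp in the 17, 747 bp in the 45 and 1671 bp in all 2407 genes of that signal. A longer gene offers more windows. The windows of SNF5, DEF1, NAB2 (a nuclear poly(A) RNA-binding protein) and HPF1 (a cell wall mannoprotein) show the repeats, and that of ILV5 shows a fast gene for contrast. Each runs 5′ to 3′ on the coding strand, in R64 coordinates, with its most frequent codon in capitals.

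SNF5, chrII:780336-780455: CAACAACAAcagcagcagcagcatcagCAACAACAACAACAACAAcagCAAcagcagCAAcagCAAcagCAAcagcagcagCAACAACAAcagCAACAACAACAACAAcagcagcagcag
DEF1, chrXI:337473-337592: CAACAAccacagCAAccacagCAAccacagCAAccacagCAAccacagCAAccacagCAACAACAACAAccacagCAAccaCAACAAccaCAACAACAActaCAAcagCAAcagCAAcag
NAB2, chrVII:280047-280166: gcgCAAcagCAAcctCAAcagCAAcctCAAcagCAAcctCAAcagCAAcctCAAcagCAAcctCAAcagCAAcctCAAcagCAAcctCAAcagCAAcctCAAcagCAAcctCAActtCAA
HPF1, chrXV:30944-31063: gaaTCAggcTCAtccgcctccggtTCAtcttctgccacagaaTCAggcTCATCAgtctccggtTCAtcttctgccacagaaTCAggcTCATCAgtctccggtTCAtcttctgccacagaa
ILV5, chrXII:838132-838251: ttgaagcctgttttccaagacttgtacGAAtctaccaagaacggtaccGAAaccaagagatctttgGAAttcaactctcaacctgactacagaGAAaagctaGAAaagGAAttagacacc

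In SNF5 the 40 codons used 3 kinds, 21 of them CAA, and in DEF1 4 kinds, 20 of them CAA. NAB2 had 5 kinds and HPF1 9. Over all 58 genes with such a window the median relative change was 0.05, with pairs at 0.05, 0.07 and 0.05. In the other 2322 genes it was 0.01, with pairs at -0.01, 0.03 and 0.01. The relative change was positive in 44 of the 58 and in 1253 of the 2322. The 58 include the 7 slow genes with such a window, so this comparison is not separate from the one above. The 58 genes were also longer, with a median of 2081 bp against 1676 bp. In the libraries labelled set2delta;rph1delta the medians were 0.02 and 0.01. How reads that match repeats were placed is not stated.

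Across the gene lists the mark fell in nearly every tested member, and the lists differed by small amounts in relative change. All tested members fell in the lists of glycolysis (13), translation factors (21), ribosome biogenesis (52), amino acid synthesis (56), ergosterol synthesis (22), chaperones (23), general stress (24), histones (10), the H3K36 methylation pathway (31), meiosis (17), large subunits and motors (32), the proteasome (32) and housekeeping genes (18). In the respiratory list 38 of 39 fell, the exception being COX7, a cytochrome oxidase subunit (limma adjusted p = 0.0516). Among mating genes 19 of 20 fell, and in the phosphate list 19 of 21. These shares stand beside 96.1% of all genes. Outside the genes named above, no list member was called in relative change apart from other ribosomal protein genes.

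Genes with internal promoters that open when the mark is lost kept near the median share. All 5 fell: SPB4, an RNA helicase, kept 61.9%, AVO1, a TORC2 subunit, 61.4%, STE11, a pheromone pathway kinase, 63.7%, FLO8, an activator of filamentous growth, 64.5%, and the cadmium exporter gene PCA1 64.2%. FLO8 had 0.110, 0.120 and 0.114 at 30 min and 0.0670, 0.0809 and 0.0736 at 90 min. None passed in relative change (limma adjusted p between 0.325 for FLO8 and 0.987 for SPB4). RPO21 and RPB2, the largest subunits of RNA polymerase II, kept 68.5% and 68.9% and did not pass in relative change (adjusted p = 0.0923 and 0.127). The histone list had a median relative change of 0.01, but its pairs were at 0.21, -0.04 and -0.20, so no direction is given for it.

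**Figure D4:**
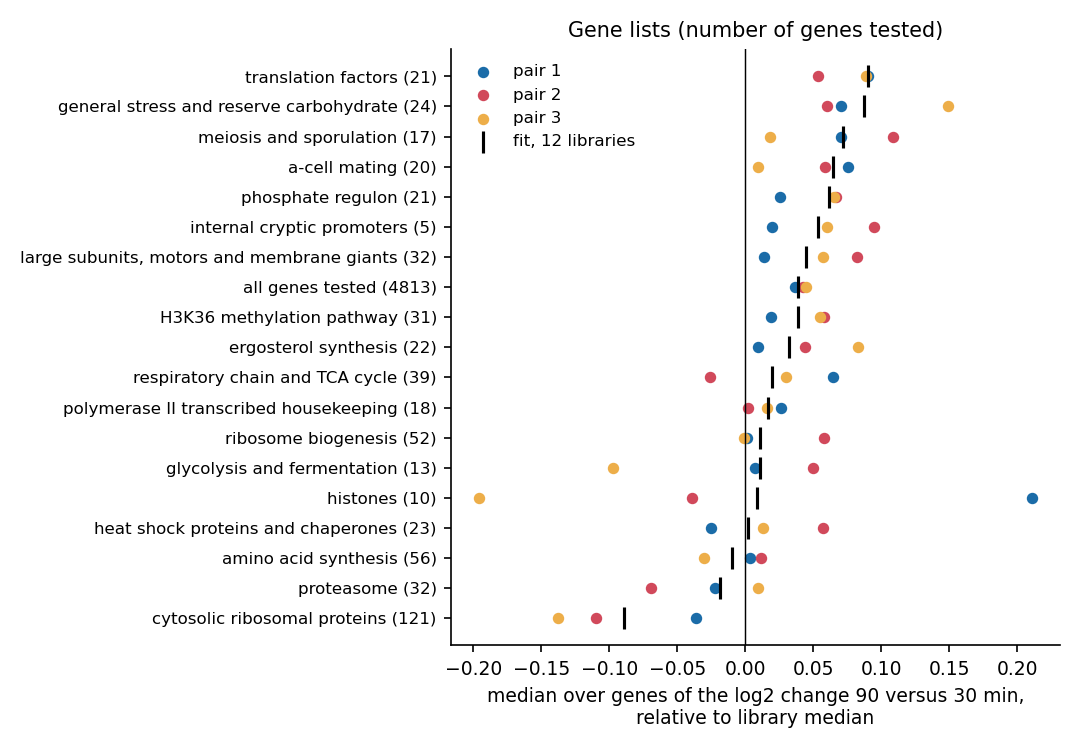
Median relative log2 change from 30 to 90 min over the tested members of each list (number in brackets), with 1 point per pair and a bar for the fit over 12 libraries. The ribosomal protein genes lie lowest at -0.09, the translation factors highest at 0.09, and the histone pairs spread from -0.20 to 0.21.

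Shorter genes fell further than longer ones in 2 of the 3 pairs. Among the 2407 genes at or above the median signal, Spearman's rho between gene length and change was 0.373, and by pair it was 0.0428, 0.380 and 0.366. It was 0.334 with ranks adjusted for RNA level. The shortest 10% of them, of 75 to 702 bp, had median relative changes of -0.03, -0.10 and -0.15 in pairs 1, 2 and 3, and the longest 10% 0.00, 0.08 and 0.06. Pair 1 was thus nearly flat. Over all 4813 genes rho was -0.164, and by pair it was -0.285, 0.0515 and -0.0786, so its sign differed between pairs. Genes are not independent replicates, and these relations share the same libraries.

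Genes of high and low RNA level differed little in their loss of the mark. RNA level is an abundance, the mean TPM over the 12 RNA libraries of the course, and transcription itself was not measured. The median log2 change of the highest 20% of genes by RNA level minus that of the lowest 20% was -0.05, -0.06 and -0.07 in the 3 pairs (exact two-sided sign-flip p = 0.25, the smallest possible). Its mean of -0.06 became -0.14 with a pseudocount as large as the table median and -0.030 with one of 0.01 of that median. From the lowest to the highest 20% the median changes were -0.575, -0.620, -0.625, -0.622 and -0.635. The largest step thus lay between the lowest 20% and the next. The lowest 20% had a median 30 min signal of 0.0534, the lowest of these groups, and the pseudocount understates changes at low signal. Among genes at or above the median signal the deepest falls lay in the top 10%, from 258 TPM upwards, with a median change of -0.72. The other deciles had medians between -0.66 and -0.63. In the top 10% 32 of 241 genes were called lower in relative change, beside 45 of 2407 genes at or above the median signal. Ribosomal protein genes, whose list had a median of 1758 TPM, are among the top 10%, so these calls overlap with theirs. With ranks adjusted for length, rho with RNA level was -0.0825, against -0.193 unadjusted.

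**Figure D5:**
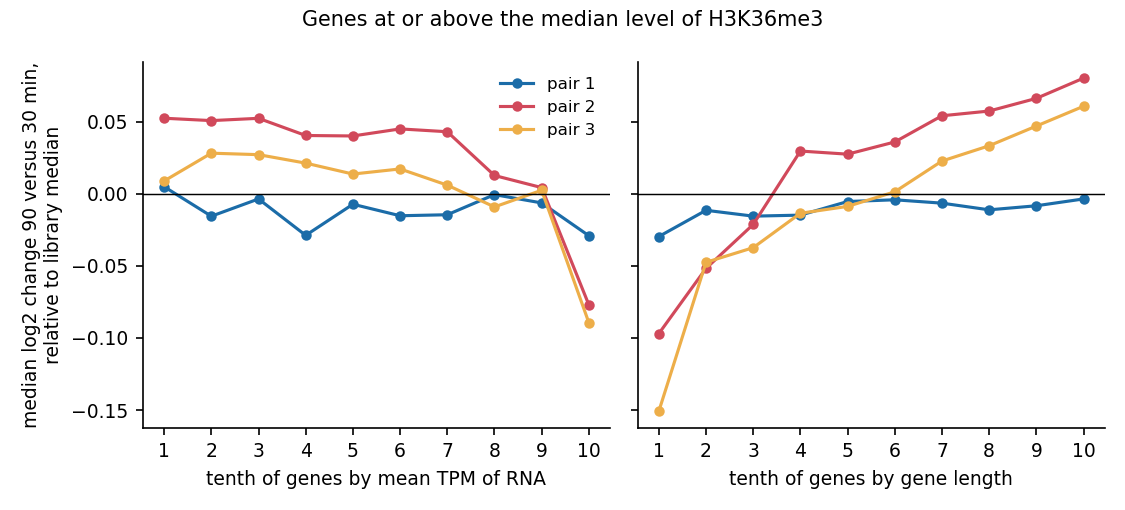
Median relative log2 change from 30 to 90 min over deciles of genes at or above the median signal, ordered by RNA level (left) and by gene length (right), with 1 line per pair. The top decile by RNA is at -0.03, -0.08 and -0.09, and the shortest decile at -0.03, -0.10 and -0.15, with pair 1 nearly flat in both panels.

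RNA changed in few genes over the same hour. Limma on log2(TPM + 1) called 184 of 5884 genes higher (3.13%) and 31 lower (0.527%) at 90 than at 30 min. Without the replicate block it called 9 and 3, and leaving out replicate 1, 2 or 3 it called 70, 7 or 9 higher and 8, 0 or 0 lower. Biotin genes were among the largest changes and were picked after their values were seen. BIO3 (YNR058W, chromosome XIV, 734291 to 735733), a biotin synthesis enzyme, went from 10.2 ± 1.57 to 60.7 ± 6.27 TPM (SD, n = 3), a log2 change of 2.47 ± 0.11 (limma adjusted p = 9.75e-06). BIO5, a biotin precursor transporter, went from 3.25 ± 0.586 to 19.5 ± 2.07 TPM, and BIO2, biotin synthase, from 58.1 ± 2.89 to 157 ± 7.97 TPM. VHT1, the biotin importer, went from 39.7 ± 3.78 to 91.7 ± 2.03 TPM (adjusted p = 9.75e-06).

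The mark fell at these genes while their RNA rose. BIO3 had an H3K36me3 signal of 0.0341, 0.0396 and 0.0455 at 30 min and 0.0257, 0.0269 and 0.0266 at 90 min, with no overlap (log2 change -0.48 ± 0.12, limma adjusted p = 0.00138). Its relative change of 0.17 did not pass (adjusted p = 0.318). BIO5 kept 61.2% of its mark, BIO2 62.0% and VHT1 60.7%, all close to the median gene. Of 133 genes with higher RNA that were tested for the mark, 132 fell and 0 were called in relative change, with a median of 0.06. Of 25 genes with lower RNA 24 fell, the median relative change was -0.06, and 3 were called lower. Of the 4464 genes whose RNA passed in neither direction, 4352 fell and 71 were called in relative change, with a median of 0.04. Among genes tested for both mark and RNA, general stress genes had 13 of 24 members called higher in RNA. Respiratory genes had 13 of 39 and ergosterol genes 11 of 22, against 133 of 4622 over all genes so tested.

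The course labelled set2delta;rph1delta asks whether the later loss needs Rph1. The RPH1 gene itself does not check that label. Its signal in the 12 libraries so labelled ran from 0.00272 to 0.378, and at 60 min it was 0.00272, 0.00313 and 0.302, although the gene is given as deleted. It was 0.0887, 0.152 and 0.150 at 30 min and 0.0635, 0.0338 and 0.0720 at 90 min. In the set2∆ course RPH1 had 0.0660, 0.0712 and 0.0723 at 30 min and 0.0360, 0.0416 and 0.0419 at 90 min, where all 90 min values were lower. In the libraries labelled set2delta;rph1delta the medians kept 66.3%, 58.3% and 73.0% from 30 to 90 min, a mean of 65.9% ± 7.35 (SD, n = 3), which overlaps the set2∆ course. The order of the 2 intervals was the opposite of that in the set2∆ course. These medians kept 93.8%, 81.1% and 91.3% from 30 to 60 min and 70.7%, 72.0% and 80.0% from 60 to 90 min, so the later interval kept less in each replicate. This difference between the courses was not tested. Both intervals rest on the 60 min libraries. Their RPH1 signal in replicates 1 and 2 was far below that at 30 and 90 min, so the order is given for these libraries only. Limma called 4720 of 4815 genes lower (98%) and 0 higher, with a median log2 change of -0.53 and 4722 genes at unadjusted p under 0.05. Without the replicate block it called 6.

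A direct test of the difference between the 2 courses called 0 of 4712 genes (0%), the smallest limma adjusted p being 0.363. At unadjusted p under 0.05 there were 274 genes, and the median difference, set2delta;rph1delta minus set2∆, was 0.09 log2 units beside a median standard error of 0.11. This median was 0.18 without replicate 2 and 0.021 without replicate 3 of both courses. In relative change 14 genes were called lower (0.291%) in the libraries labelled set2delta;rph1delta and 0 higher. Of the 46 genes lower in the set2∆ course, 43 had a negative relative change there, beside 1873 of all 4815 genes. Of the 33 higher genes tested in both, 25 had a positive one, beside 2942 of 4815. Over all genes tested in both, 2980 of 4712 had the same sign. ILV5 had a relative change of -0.42 in those libraries, TDH3 -0.34 and PSA1 -0.32, while SNF5 had 0.10 and MIN10 -0.20. The direct test on relative change called 1 of 4712 genes lower (0.0212%), TRX1, and 0 higher. The fast set had a median of -0.19 there, and the slow set at or above the median signal 0.05.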

How the data were processed

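Budding yeast ChIP libraries for H3K36me3 and RNA libraries were used as deposited. In the authors' ChIP tables each library has 1 signal value for a gene, and its unit and scaling are not given in the sources used here. TPM values come from the RNA table of the authors, which also holds gene length in bases (another unit). The tools, named without role or order, were, per the submitters' processing notes, STAR 2.5.4b, STAR 2.5.2b, Salmon 0.8.1, cutadapt 1.12 and bcl2fastq 2.20.0, deepTools 2.5.4, bedtools 2.26, SAMtools 1.3.1, SAMtools 1.31, DESeq2 1.14.1 and R 3.3.1. The builds named there are ASM294v2 and sacCer3. The TPM values carry no depth.

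Signals were analysed as log2(value + 0.1 of the table median), leaving out genes whose mean fell under the 10th percentile, with limma 3.58.1 in R 4.3.3. The fit had time and replicate number as terms over all 12 libraries of a course, a variance trend, and Benjamini-Hochberg adjustment over all genes at 0.05. RNA was fitted the same way as log2(TPM + 1), where the mean reached 1 TPM or more. The difference between courses was an interaction term. No 2 libraries were identical, and replicates of a time had Spearman's rho of 0.964 to 0.979. The fits were run on simulated data with independent noise around the same blocked model. This checked the size of recovered changes and could not check the replicate block. IDs of 4726 of 4813 tested genes matched R64, the release of sacCer3, from which names, coordinates and sequence were read with Python 3.11.15.

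Named genes were taken from 2295 eligible genes (a standard name, a mean signal at or above the median, no feature with the same values): the 8 largest and 8 smallest called falls, up to 6 each way in relative change and pace, the 5 internal promoter genes, RPH1, and the 2 smallest p-values of each of 18 lists (members of lists need no minimum signal). The 6 largest RNA changes were followed through the alternatives. The genes, lists and tests were chosen with earlier results of these data known.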

Additional observations from a re-analysis of the deposited data

Results flagged for a closer look

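TRX1 (YLR043C, chromosome XII, 231702 to 232013), a cytosolic thioredoxin gene, differed between the courses by the interaction test on relative change. From 30 to 90 min its relative change was 0.23 in the set2∆ course (pairs 0.26, 0.19 and 0.23) and -0.29 in the libraries labelled set2delta;rph1delta (pairs -0.25, -0.26 and -0.36). The difference was -0.52 ± 0.07 (SE, limma adjusted p = 0.00332), and it was the only 1 called of 4712 genes (0.0212%). In absolute change it did not pass (-0.41, adjusted p = 0.742). Its signal at 30 min was 0.0385 ± 0.00245 (SD, n = 3) in the set2∆ course, below the median of 0.0798, and 0.223 ± 0.0802 in the other course, above the median of 0.169. The test on relative values was chosen after seeing the data, and the cause of the difference in level was not tested.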

How the results depend on the processing

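Genes lower at 90 than 30 min numbered 4485 to 5031 under all alternatives but 1: a filter at the median signal, which tests fewer genes, gave 2639 (0 higher), and in the same way 2626 from 30 to 60 min and 2667 in the libraries labelled set2delta;rph1delta. Leaving out 1 replicate gave 4485 to 4553 lower and 1 to 7 higher. The median change was -0.35 with the pseudocount at the table median and -0.67 at 0.01 of it (-0.29 at the table median in the other course), and the library change of -0.72 was -0.68 as a mean over genes. Relative calls, lower and higher, numbered 1003 and 1163 with the pseudocount at the table median, 77 and 78 with no filter, 2 and 2 with only the 30 and 90 min libraries, and 1 to 7 and 0 to 2 without 1 replicate. Lower genes were 15 without the variance trend and 122 with centring by the mean, and higher genes 84 with the pseudocount at 0.01 of the table median and 21 with quantile normalization. At that largest pseudocount the relative changes of CBF5, SSB2 and DEF1 reversed to -0.041, -0.016 and -0.011. Genes of slower pace later numbered 2208 and faster 3 at that pseudocount, 791 and 2 with the filter at the median, 2 with no filter, and 1 to 25 without 1 replicate. From 60 to 90 min 873 to 2242 genes were lower without 1 replicate. RNA gave 7 to 70 higher and 0 to 8 lower without 1 replicate. The difference between genes of high and low RNA was -0.14 with the pseudocount at the table median, -0.030 at 0.01 of it, -0.13 in deciles and -0.12 with no filter. On relative values, chosen after seeing the data, 14 genes were lower in the libraries labelled set2delta;rph1delta and 1 differed between the courses. The cause of these moves was not tested.

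The replicate block rests on numbers that need not pair cultures. Of 18 same-numbered pairs of libraries 10 had deviations correlated above 0.1 (median r 0.138, against -0.0507 for other numbers). For the times compared here the pairing was not borne out. Between 30 and 90 min r was 0.117, -0.265 and -0.0693 in replicates 1, 2 and 3. Between 60 and 90 min it was 0.250, -0.125 and -0.143 in the same order. Without the block 4569 genes were lower at 90 than 30 min, 24 lower and 15 higher in relative change (38 of these 39 also called with the block), 0 slower in pace, 0 lower from 60 to 90 min, 6 lower in the libraries labelled set2delta;rph1delta, and 9 higher and 3 lower in RNA.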
